A study of Mus musculus with 16 samples.

Results

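The genes described here are 43 genes of cell division and of neural progenitors, chosen by symbol from genes with known roles there. All 43 were found among the 22440 genes of the RNA-seq tables, and all 43 lay above 0 in each of the 4 libraries. They divide into 15 genes of G1 and S phase, 22 genes of G2 and mitosis, and 6 genes of neural progenitors. The 4 libraries came from primary cortical neurons of Swiss-Webster mouse embryos at day 16, with 1 library a group and no replicate. The etoposide group received etoposide at 5 µM, for a time the labels do not give. The NMDA group received NMDA, an agonist of the glutamate receptor of that name, and the labels give 50 µM for 10 min with 10 min of recovery as the regime of most experiments. A pair of libraries titled only as controls completes the set, with no treatment named. They are called the etoposide control and the NMDA control, after the treated library each accompanies in the authors' deposited tables. The series as a whole asks how DNA breaks bear on early-response genes.

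The cultures are bulk samples, plated without any sort that the labels mention, so glia and dividing precursors may be present beside neurons. All 10 neuronal markers measured, among them Tubb3 and Rbfox3, stood at FPKM of at least 1 in every library. FPKM is the number of fragments per kilobase of transcript, scaled to the size of the library. The 4 libraries held 9836 to 12886 genes at FPKM of at least 1. FPKM in the NMDA control were higher than in the etoposide control across most of the table, with a median ratio of 2.95 over the 10358 genes at FPKM of at least 1 in both. The corresponding median was 0.762 for etoposide over its control and 1.02 for NMDA over its control. Member ratios were therefore divided by these medians, and the quotient is called the relative ratio, with 1 standing for the median gene. Its 95% counting interval comes from approximate fragment numbers and covers counting error only, since fragments without molecular identifiers are not independent molecules. With 1 library a group no test was possible, and every difference below is between 2 libraries.

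Cells enter the cycle when D-type and E-type cyclins activate their kinases and release E2F factors, which switch on the genes that license and copy DNA. Later, cyclin A, cyclin B and Cdk1 carry the cell into mitosis, and kinesins, Aurora kinases and checkpoint proteins separate the chromosomes before the anaphase-promoting complex destroys the cyclins. In the embryonic cortex these programmes run in radial glia and other progenitors, which express Sox2, Pax6, nestin and vimentin and are held undifferentiated by Notch signalling through Hes1 and Hes5. Neurons have left the cycle for good, and many of these genes are then kept silent by the DREAM complex, which binds CHR elements and E2F sites in their promoters.

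The promoters of the members differed by phase in the sequence words they held. A RefSeq promoter window of 300 bases on GRCm38.p6, from 250 bases before the start to 50 after it, was found for 35 of the 43 members, in 38 windows. Both strands were searched for the CCAAT box (CCAAT), for CHR-type words (TTTGAA or else TTCGAA) and for E2F-type words (TTGGCGC or else TTCGCGC or else TTCCCGC or else TTGCCGC), which can overlap each other. A CHR-type word stood in the windows of 14 of 18 mitotic genes, of 2 of 12 G1 and S phase genes and of 1 of 5 progenitor genes, against 19.2% of all 32851 windows. An E2F-type word stood in 8 of 12 G1 and S phase genes, 3 of 18 mitotic genes and 1 of 5 progenitor genes, against 9.57% of all windows. The CCAAT box stood in 16 of 18 mitotic genes, 8 of 12 G1 and S phase genes and 4 of 5 progenitor genes, against 37.4% of all windows. Both a CCAAT box and a CHR-type word stood in 14 of 18 mitotic genes, against 7.52% of all windows. Members are counted here by gene and these shares by window. By gene, a CHR-type word stood in 5854 of all 27025 genes, an E2F-type word in 2936 and the CCAAT box in 11096. A CCAAT box with a CHR-type word stood in 2328 of them. A match is a description of the letters and not a measured binding site. The 200 bases before the start are given for 4 members, 5′ to 3′ on the gene's strand, with matched words in capitals. Cdk1 (chr10:69352913-69353112, minus strand) and Mki67 (chr7:135716380-135716579, minus strand) carry all 3 kinds of word, Mcm6 (chr1:128359706-128359905, minus strand) carries CCAAT and E2F-type words, and Tyms (chr5:30073626-30073825, minus strand), the S phase gene that stood apart between the controls, carries none in this window.
Cdk1: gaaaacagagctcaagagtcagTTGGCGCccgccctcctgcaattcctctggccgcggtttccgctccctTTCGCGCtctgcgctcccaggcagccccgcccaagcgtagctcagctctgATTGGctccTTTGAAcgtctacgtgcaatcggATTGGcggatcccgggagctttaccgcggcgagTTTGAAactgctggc
Mki67: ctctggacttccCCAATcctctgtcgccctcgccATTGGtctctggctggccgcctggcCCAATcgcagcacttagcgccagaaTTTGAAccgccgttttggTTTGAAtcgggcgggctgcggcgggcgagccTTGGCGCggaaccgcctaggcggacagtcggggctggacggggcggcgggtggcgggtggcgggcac
Mcm6: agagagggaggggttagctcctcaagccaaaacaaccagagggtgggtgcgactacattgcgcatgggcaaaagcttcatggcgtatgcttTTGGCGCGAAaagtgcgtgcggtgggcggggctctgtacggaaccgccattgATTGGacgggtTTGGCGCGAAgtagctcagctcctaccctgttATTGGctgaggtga
Tyms: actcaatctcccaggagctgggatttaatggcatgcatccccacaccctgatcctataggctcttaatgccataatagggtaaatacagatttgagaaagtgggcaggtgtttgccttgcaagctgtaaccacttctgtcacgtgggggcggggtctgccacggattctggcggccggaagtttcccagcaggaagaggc

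Within each library the members spanned a wide range of levels, in FPKM and so per length of transcript. The 22 mitotic genes were the lowest group in the etoposide control, where FPKM ran from 0.128 for Cenpf to 1.20 for Ube2c, with a median of 0.414, and 3 of 22 reached 1. In the NMDA control the same genes ran from 1.08 for Bub1 to 10.1 for Ccna2, with a median of 3.62, and 22 of 22 reached 1. The mitotic genes were thus near the lower end of measurement in the etoposide control, at a summed FPKM of 11.3 or roughly 646 fragments, against 87.1 or roughly 6450 fragments in the NMDA control. The G1 and S phase genes ran from 0.0961 for Cdc6, which loads the replicative helicase, to 11.7 for Pcna, the sliding clamp of DNA polymerase, in the etoposide control, with a median of 1.14. Their median in the NMDA control was 5.42, and Pcna was again the highest at 48.8. Among progenitor genes Vim, which encodes the intermediate filament vimentin, was the most abundant member in every library, at 72.5, 24.4, 314 and 257 FPKM in the etoposide control, etoposide, the NMDA control and NMDA. Vimentin is also made by astrocytes and fibroblasts, and Nes by other immature cells, so neither marks progenitors alone. Exons of Ccna2, Ube2c, Cdc20, Kif20a, Nusap1, Mcm7, Tyms, Ccne2, Ccnd1, Pax6 and Hes5 overlap a gene on the other strand in the GENCODE annotation of the files' build, and no source used here says whether strand was used in counting. Processed copies of Pcna and Ccnb2 are annotated, and reads shared with them could not be separated.

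**Figure D1:**
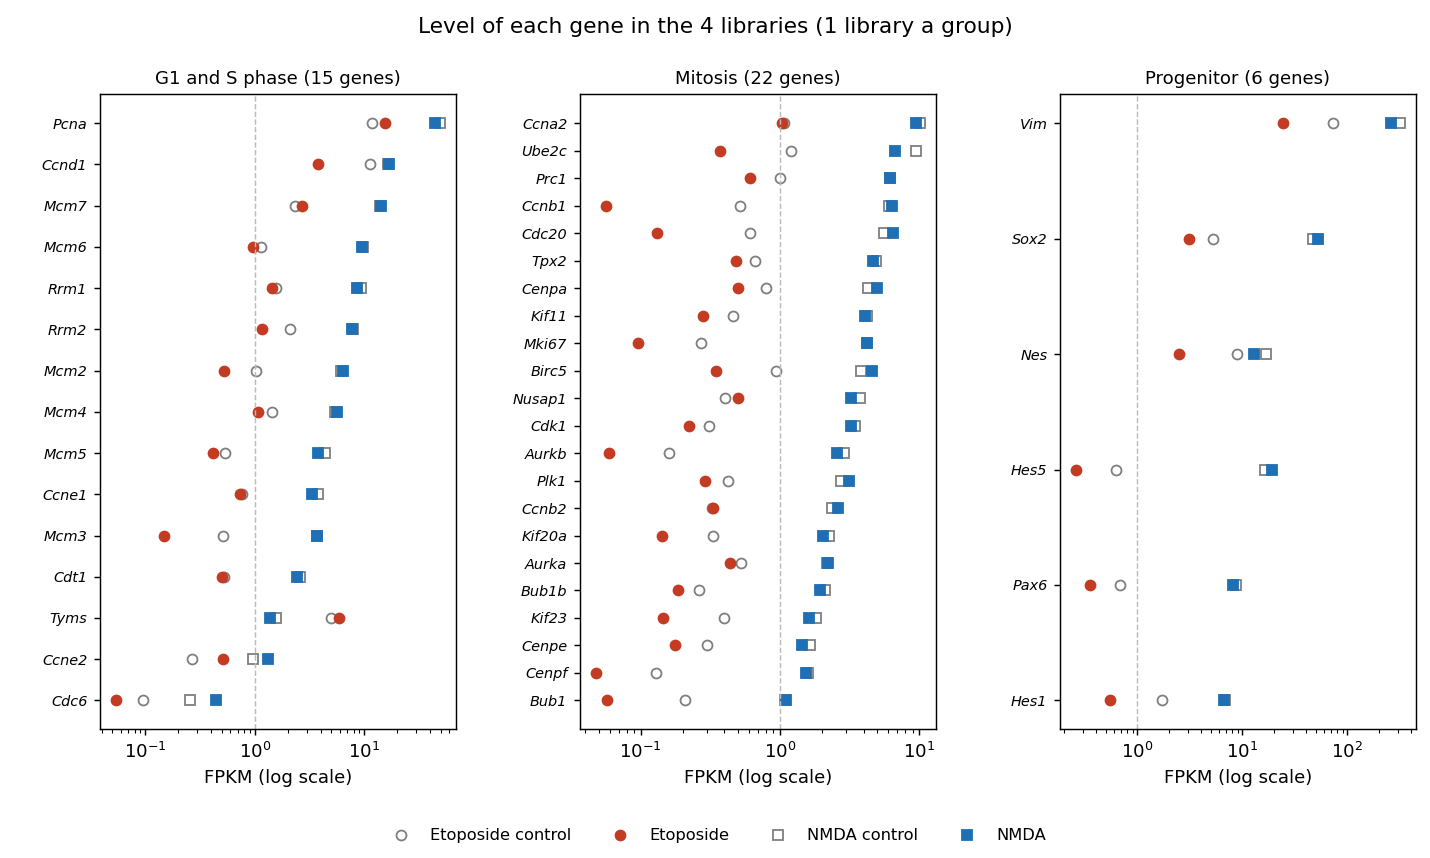
FPKM of each of the 43 genes (log axis) in the 4 libraries, with the etoposide control as open grey circles, etoposide as red circles, the NMDA control as open squares and NMDA as blue squares, and a dashed line at 1 FPKM. For mitotic genes the NMDA control and NMDA squares nearly coincide, at medians of 3.62 and 3.25, and lie to the right of the etoposide control and etoposide circles, at medians of 0.414 and 0.251.

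The largest differences among the members lay between the libraries titled as controls. Relative to the median gene, 39 of 43 members were higher and 4 lower in the NMDA control, against 52.7% and 47.3% of the 15989 genes above 0 in both. The difference was at least 2-fold upward for 25 members and downward for 2, against 14.7% and 8.99% of all genes. The counting interval lay wholly above 1 for 34 members and wholly below 1 for 3, against 32.2% and 26.7% of genes. On log2(FPKM + 1) at FPKM of at least 1 in either library, 37 of 41 members were at least 2-fold higher and 1 lower, but so were 75.1% and 0.708% of all genes. Against the median of all genes on that measure, 30 of the 41 members were above and 11 below. Since most genes pass 2-fold on it, the members are described by the relative ratio.

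By the relative ratio, mitotic genes differed most uniformly. All 22 had a relative ratio above 1, from 1.40 for Birc5 to 6.19 for Aurkb, and 16 of 22 reached 2-fold. Their median was 2.61 against 1.03 for all genes. On log2(FPKM + 1), 15 of the 22 were above the median of all genes and 7 below it, so this uniformity depended on the measure. Mki67 (chr7:142881471-142908062, mm9), which encodes the proliferation antigen Ki-67, stood at 0.271 FPKM in the etoposide control, 0.0962 in etoposide, 4.20 in the NMDA control and 4.21 in NMDA. The relative ratio of the controls was 5.25 for Mki67, with a counting interval of 3.96 to 7.11. Its level was thus close to the floor in the first pair of libraries and well measured in the second pair. Cdk1, the kinase that drives mitotic entry, read 0.311 FPKM in the etoposide control and 3.49 in the NMDA control, a relative ratio of 3.80 (2.29 to 6.77). Its partner Ccnb1, cyclin B1 (chr13:101548694-101556441), read 0.515 and 6.07 FPKM, a relative ratio of 4.0 (2.60 to 6.48). Ccna2, cyclin A2, read 1.08 and 10.1 FPKM, a relative ratio of 3.18 (2.41 to 4.27). The cyclins and their kinase were therefore all more than 2-fold above the median gene, as was Ccnb2, which encodes cyclin B2, at 2.46 (1.18 to 5.91).

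The machinery of chromosome segregation followed the same direction with a wider spread. Aurkb, the Aurora kinase of the chromosomal passenger complex, read 0.159 FPKM in the etoposide control, from roughly 5 fragments, and 2.91 in the NMDA control, so its relative ratio of 6.19 has an interval of 2.58 to 19.4. Birc5, survivin of the same complex, had the smallest ratio of the group at 1.40 (1.05 to 1.92), from 0.934 and 3.86 FPKM. Aurkb and Birc5 were thus the highest and lowest of the mitotic ratios, and their intervals, of counting error only, do not overlap. Kinetochore genes gave relative ratios of 4.24 for Cenpf, 1.87 for Cenpe and 1.85 for Cenpa, the centromeric histone. Spindle motors gave 3.14 for Kif11, which slides spindle microtubules apart, 2.31 for Kif20a and 1.57 for Kif23, both of cytokinesis. Microtubule-bundling and spindle-assembly genes gave 3.13 for Nusap1, 2.51 for Tpx2 and 2.10 for Prc1. Checkpoint kinases gave 2.74 for Bub1b and 1.77 (0.960 to 3.57) for Bub1, while Aurka, the Aurora kinase of the spindle poles, gave 1.42 (0.828 to 2.60) and Plk1, polo-like kinase 1, gave 2.22. Genes of the anaphase-promoting complex pathway, its activator Cdc20 and its ubiquitin-conjugating enzyme Ube2c, gave 3.13 and 2.71. The intervals of Bub1 and Aurka were the only mitotic intervals that included 1.

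Genes of G1 and S phase were less uniform by the relative ratio. Of 15, 12 were above the median gene and 6 at least 2-fold, with a median of 1.66. On log2(FPKM + 1), 10 of the 13 compared were above the median of all genes and 3 below it. The subunits of the MCM helicase, which unwinds DNA at the fork, were all above 1, with Mcm6 at 2.91, Mcm5 at 2.81, Mcm3 at 2.45, Mcm7 at 2.05, Mcm2 at 2.01 and Mcm4 at 1.29. Mcm6, for example, read 1.14 FPKM in the etoposide control, 0.956 in etoposide, 9.82 in the NMDA control and 9.58 in NMDA. Of the helicase loaders, Cdt1 gave 1.66 (1.02 to 2.86) and Cdc6 gave 0.911 (0.403 to 2.32). Ribonucleotide reductase, which makes deoxynucleotides, gave 2.05 for its large subunit Rrm1 and 1.28 (0.996 to 1.66) for Rrm2. Pcna gave 1.42 (1.25 to 1.62), and the E-type cyclins, which fire origins, gave 1.68 for Ccne1 and 1.22 (0.673 to 2.36) for Ccne2. Replication genes were thus mostly above the median gene, by less than the leading mitotic genes.

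Tyms and Ccnd1 went the other way. Tyms (chr5:30384740-30400165, mm9), thymidylate synthase, read 4.95 FPKM in the etoposide control, 5.87 in etoposide, 1.56 in the NMDA control and 1.38 in NMDA. It was the only member with a lower FPKM in the NMDA control than in the etoposide control, and its relative ratio of 0.107 had an interval of 0.0869 to 0.131. Exons of Tyms overlap Gm17448 on the opposite strand, so this value may hold fragments of both genes, and their part in the result was not tested. Ccnd1 (chr7:152115836-152125830), cyclin D1, the cyclin of G1 entry, read 11.2, 3.77, 16.4 and 16.7 FPKM in the same order, a relative ratio between controls of 0.496 (0.453 to 0.544). The other D-type cyclins, Ccnd2 and Ccnd3, gave 1.16 and 1.34, above the median gene.

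Among the 6 progenitor genes, 5 were above the median gene in the NMDA control and 3 at least 2-fold, with a median of 2.24. Hes5 (chr4:154335032-154336480), a repressor induced by Notch, read 0.631 FPKM in the etoposide control, 0.262 in etoposide, 16.5 in the NMDA control and 19.3 in NMDA, and its relative ratio between controls was 8.85 (5.01 to 17.3). Pax6 (chr2:105516602-105537226), a transcription factor of radial glia, read 0.683, 0.353, 8.63 and 8.14 FPKM, with a ratio of 4.29 (3.52 to 5.27). Sox2, a transcription factor of neural stem cells and of glia, read 5.28, 3.11, 46.9 and 52.5 FPKM, with a ratio of 3.01 (2.62 to 3.48). These 3 transcription factors exceeded every other progenitor member. Vim gave 1.47 (1.41 to 1.53), and Hes1, the other Notch-induced repressor, gave 1.36 (0.958 to 1.98) from 1.70 and 6.81 FPKM. Nes (chr3:87775015-87784373), nestin, read 8.84 and 16.7 FPKM and lay below the median gene at 0.642 (0.595 to 0.692). The progenitor genes therefore did not share a size of difference, and the filament genes stood below the transcription factors Hes5, Pax6 and Sox2. The locus listed for Sox2 spans 118 kb in the files against 2.46 kb for the gene in GENCODE, so its value may include a longer transcript. The listed loci of the mitotic genes Kif20a, at 53.1 kb against 8.64 kb, and Ccna2, at 19.4 kb against 7.29 kb, are also wider than the annotated genes.

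**Figure D2:**
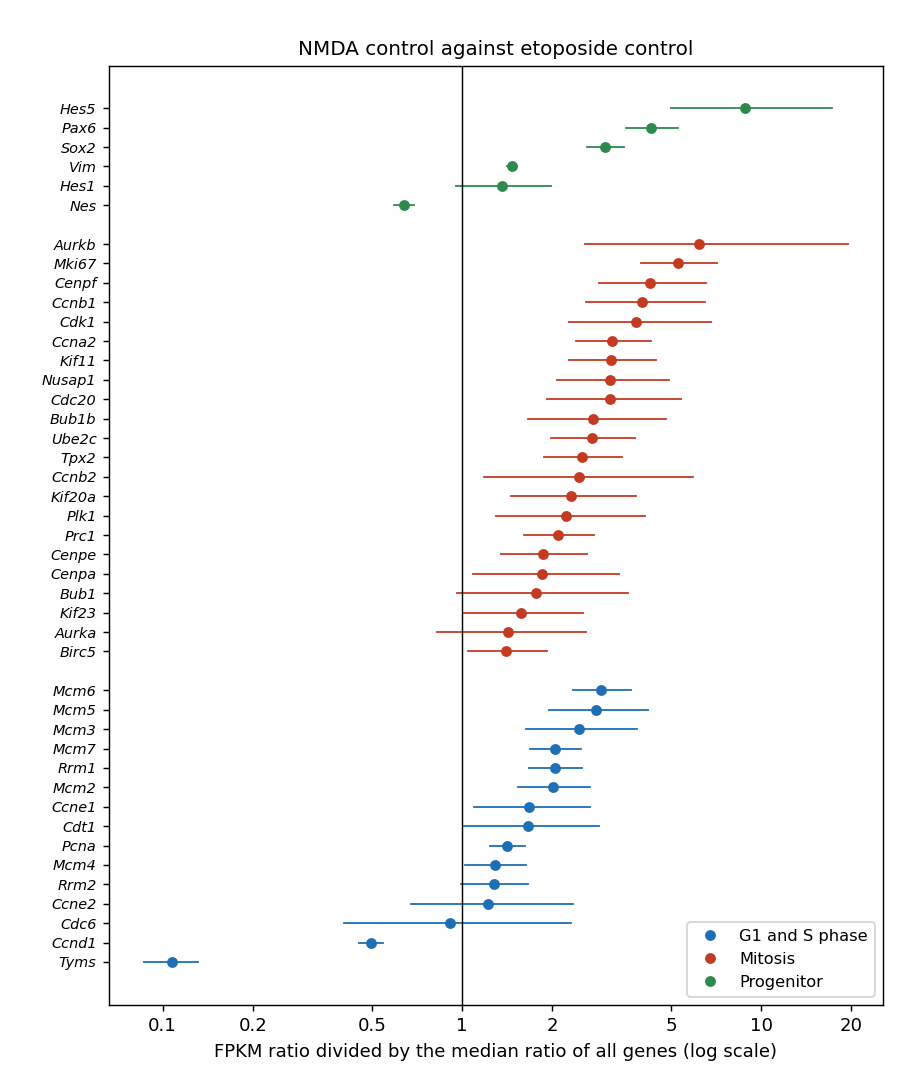
FPKM ratio of the NMDA control to the etoposide control, divided by the median ratio of all genes (log axis), for each of the 43 genes, with 95% counting intervals as bars and the median gene as a line at 1. All 22 mitotic genes lie to the right of 1, from 1.40 to 6.19, and Tyms at 0.107 is the farthest to the left.

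Other genes of the same pathways gave the setting. Of 37 further mitotic genes, 35 were above the median gene and 22 at least 2-fold, with a median of 2.11. On log2(FPKM + 1), 18 of the 34 compared were above the median of all genes and 16 below it. Top2a, the topoisomerase II of dividing cells, read 0.797 and 11.8 FPKM in the controls, a relative ratio of 5.04. Smc4, a condensin subunit, gave 2.36 and Pbk, a mitotic kinase, gave 2.85, while the condensin subunit Ncapg gave 0.436. Of 30 further replication genes, 23 were above the median gene and 8 at least 2-fold, with a median of 1.45. On log2(FPKM + 1), 13 of the 27 compared were above and 14 below. Prim1, the primase, gave 2.65 and Gins4, a helicase subunit, gave 1.71, whereas Dut, which like thymidylate synthase serves dTTP supply, gave 0.488. The 19 genes of the E2F, Rb, MuvB and FoxM1 regulators had a median of 1.22 with 12 above 1, and among them E2f1 gave 0.747 and Mybl2 gave 1.48. On log2(FPKM + 1), 4 of the 16 regulators compared were above the median of all genes and 12 below, so their direction depended on the measure. Among the 8 other G1 cyclins and kinases 6 were above 1, with Cdk4, the partner of D-type cyclins, at 2.03.

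Of the 7 CDK inhibitors, 4 were above and 3 below the median gene. Cdkn2d, p19, read 8.18 FPKM in the etoposide control and 2.10 in the NMDA control, a relative ratio of 0.0871, while its relative Cdkn2c, p18, read 0.600 and 7.63 FPKM, a ratio of 4.32. These INK4 inhibitors of Cdk4 and Cdk6 lay far apart in opposite directions. Cdkn1b, p27, gave 1.56, and Cdkn1a, p21, gave 0.646.

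All 19 further progenitor genes were above the median gene and 12 were at least 2-fold, with a median of 2.37. Prom1, the stem cell surface protein prominin, read 0.408 and 14.8 FPKM, a relative ratio of 12.4. The differentiation inhibitors Id3 and Id4 gave 10.8 and 7.73. Fabp7, the lipid-binding protein of radial glia and astrocytes, read 94.1 and 867 FPKM, a ratio of 3.13. Many genes of this list are also expressed by astrocytes. In the Notch pathway 11 of 14 were above 1 with a median of 1.37, among them the receptor Notch1 at 3.24 and its modifier Lfng at 2.65. The ligand Dll3 gave 24.3, from 0.117 and 8.39 FPKM, so it was close to the floor in the etoposide control. The counting interval lay above 1 for 8 of the 14 and below 1 for 1, Jag2, against 32.2% and 26.7% of all genes. On log2(FPKM + 1), 7 of the 12 compared were above the median of all genes and 5 below. All 7 intermediate progenitor genes measured in both controls were above 1, including Gadd45g, a growth arrest gene, at 2.75.

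Markers of other cell types differed between the same libraries. Astrocyte markers summed to 64.5 FPKM in the etoposide control and 685 in the NMDA control, with 8 of 8 above the median gene and a median relative ratio of 3.50. Oligodendrocyte lineage markers summed to 20.6 and 197 FPKM, with 8 of 8 measured in both above it and a median of 5.19, and Mag at 0 in the etoposide control. Neuronal markers summed to 627 and 1629 FPKM, and 3 of 10 were above the median gene, with a median of 0.837. Glial genes were thus higher along with mitotic and progenitor genes, and neuronal genes were not. Mural cell and fibroblast markers summed to 14.6 and 72.9 FPKM, with 5 of 10 above the median gene. Microglial markers summed to 0.602 and 4.80 FPKM and endothelial markers to 0.586 and 3.62, with C1qa and C1qb of the microglial list and Cldn5, Cdh5, Tek and Ly6c1 of the endothelial list at 0 in the etoposide control. The part of these cells in the result was not tested. In bulk RNA, fewer dividing cells and less RNA per dividing cell cannot be told apart.

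**Figure D3:**
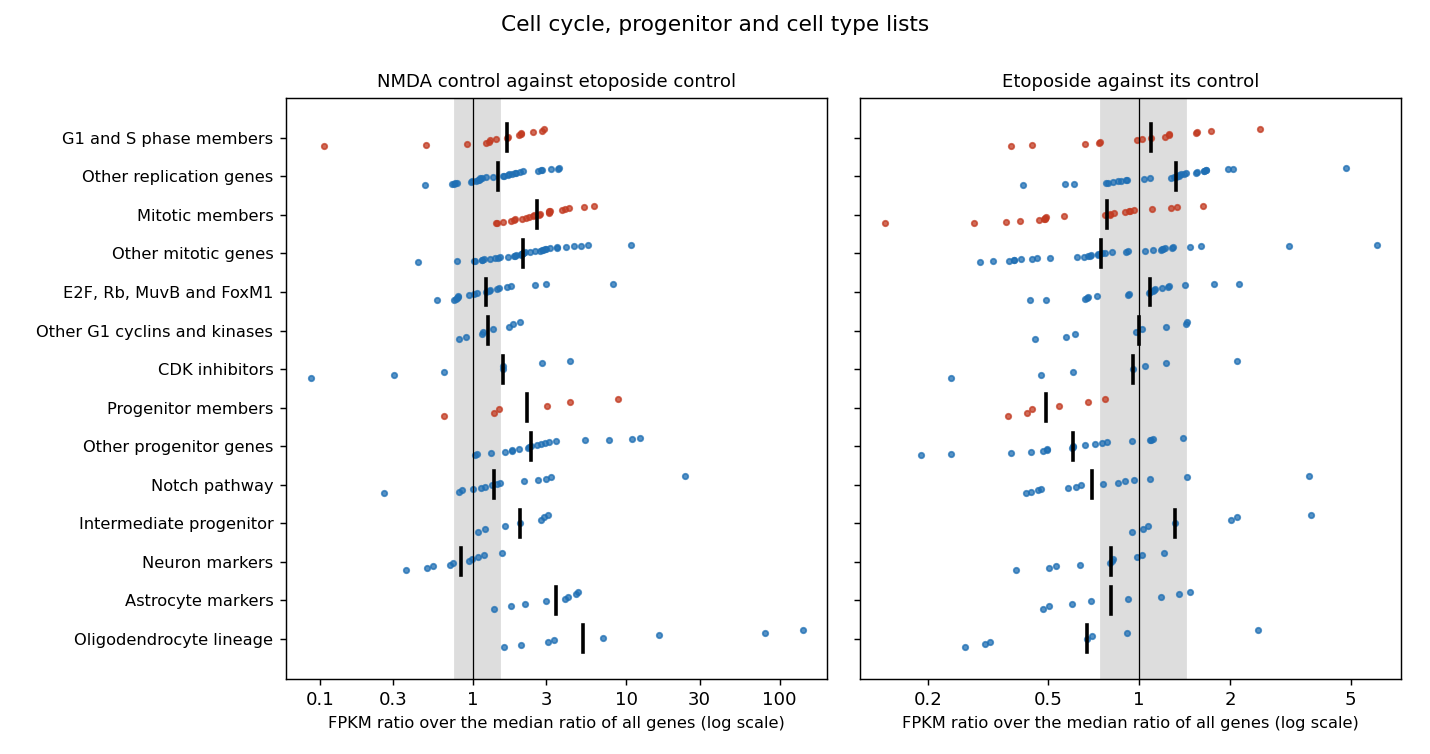
Relative FPKM ratio of each gene (log axis; NMDA control against etoposide control on the left, etoposide against its control on the right), by list, with the 43 genes in red, further lists in blue, list medians as black bars and the interquartile range of all genes as a grey band. On the left the medians of the mitotic, progenitor and glial lists lie to the right of 1 and the neuronal median at 0.837 does not. On the right the medians of the progenitor members and further progenitor genes, at 0.493 and 0.604, lie below those of the replication lists at 1.10 and 1.33.

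With etoposide, a topoisomerase II poison that leaves DNA breaks and is used against dividing cells, progenitor genes were the members most uniformly below the median gene. This comparison shares its control with the comparison of the controls, so a chance high or low reading in that library enters both. Relative to the median gene, 14 of 43 members were at least 2-fold lower and 1 was at least 2-fold higher, against 7.55% and 9.95% of the 15697 genes above 0 in both. Of the members 30 were below and 13 above the median gene, against 48.2% and 51.8% of genes. Among genes with a mean FPKM of 0.1 to 1, where many members lie, 11.7% were at least 2-fold lower and 18.7% higher. The counting interval lay wholly below 1 for 12 members and wholly above 1 for 4, against 25.0% and 21.5% of genes. On log2(FPKM + 1), 16 members reached FPKM of 1 in either library, and 3 of them were at least 2-fold lower and 0 higher, against 7.36% and 0.477% of all genes. The 12 members with intervals below 1 were 5 of 22 mitotic, 2 of 15 G1 and S phase and 5 of 6 progenitor genes, and all 4 above 1 were of G1 and S phase. The mitotic share below 1 was 22.7%, close to the 25.0% of all genes, and the G1 and S phase share above 1 was 26.7%, close to the 21.5% of all genes.

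Several genes of DNA synthesis exceeded the median gene. Pcna (chr2:132075022-132078916, mm9) read 11.7 FPKM in the etoposide control and 15.4 with etoposide, a relative ratio of 1.73 (1.47 to 2.04). Tyms read 4.95 and 5.87, a ratio of 1.56 (1.34 to 1.80), and Mcm7 read 2.31 and 2.71, a ratio of 1.54 (1.20 to 1.98). All 3 had a higher FPKM with etoposide while the median gene was lower. Ccne2, cyclin E2, read 0.267 and 0.512 FPKM, a ratio of 2.52 (1.28 to 5.20) from roughly 14 and 27 fragments, and its listed locus of 62.9 kb is wider than the gene's 13.4 kb. Other MCM subunits lay near the median gene, with Mcm6 at 1.10, Mcm5 at 1.02 and Mcm4 at 0.983, or below it, with Mcm2 at 0.663 (0.416 to 1.04) and Mcm3 at 0.378 (0.148 to 0.860). Rrm1, Cdt1 and Ccne1 gave 1.22, 1.26 and 1.26, and Rrm2 and Cdc6 gave 0.738 and 0.742, all with intervals that included 1. In all, 9 of 15 lay above the median gene, with a median of 1.10 against 1.02 for all genes. The median locus of the 15 was 15.3 kb. Genes with loci under 20 kb, at FPKM of at least 1 in both, had a median of 1.18, and 68.1% of them lay above 1. On log2(FPKM + 1) the median was 0.19 above that of all genes, and against the NMDA control after median scaling it was -0.25.

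Ccnd1 was the exception with many fragments behind it. It read 11.2 FPKM in the control and 3.77 with etoposide, a relative ratio of 0.442 (0.382 to 0.511), and the authors' deposited table lists it at 2.97-fold lower. Ccnd2 was also below the median gene at 0.611, from 13.1 and 6.12 FPKM, and Ccnd3 above it at 1.23, so the D-type cyclins did not move as a group.

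The direction of the mitotic genes with etoposide depended on the measure, on roughly 646 fragments in the control and 372 with etoposide over all 22. On log2(FPKM + 1) their median was 0.01 above that of all genes, from the 3 that reached FPKM of 1. On the relative ratio 18 of the 22 were below the median gene and 9 at least 2-fold lower, with a median of 0.785. Ccnb1 read 0.515 FPKM in the control and 0.0564 with etoposide, a relative ratio of 0.144 (0.0164 to 0.585) that rests on roughly 2 fragments with etoposide. Cdc20 read 0.609 and 0.132, a ratio of 0.285 (0.0701 to 0.865), and Ube2c read 1.20 and 0.370, a ratio of 0.405 (0.200 to 0.765). These 3 were among the lowest mitotic ratios, with Cdc20 and Ube2c on roughly 4 and 13 fragments with etoposide. Mki67 gave 0.465 (0.259 to 0.801) and Birc5 gave 0.493 (0.283 to 0.829), and these 5 were the only mitotic intervals wholly below 1. The other 17 included 1, among them Bub1 at 0.364 (0.0855 to 1.20), Kif23 at 0.484, Aurkb at 0.489 (0.0466 to 2.99) and Cenpf at 0.490 (0.212 to 1.04), each past 2-fold. Cdk1 at 0.935, Tpx2 at 0.958 and Bub1b at 0.923 were near the median gene. Above it were Nusap1 at 1.62 (0.932 to 2.86), Ccnb2 at 1.34 (0.437 to 4.08), Ccna2 at 1.27 (0.856 to 1.88) and Aurka at 1.11. The remaining mitotic members lay between 0.564 for Kif20a and 0.901 for Plk1.

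**Figure D4:**
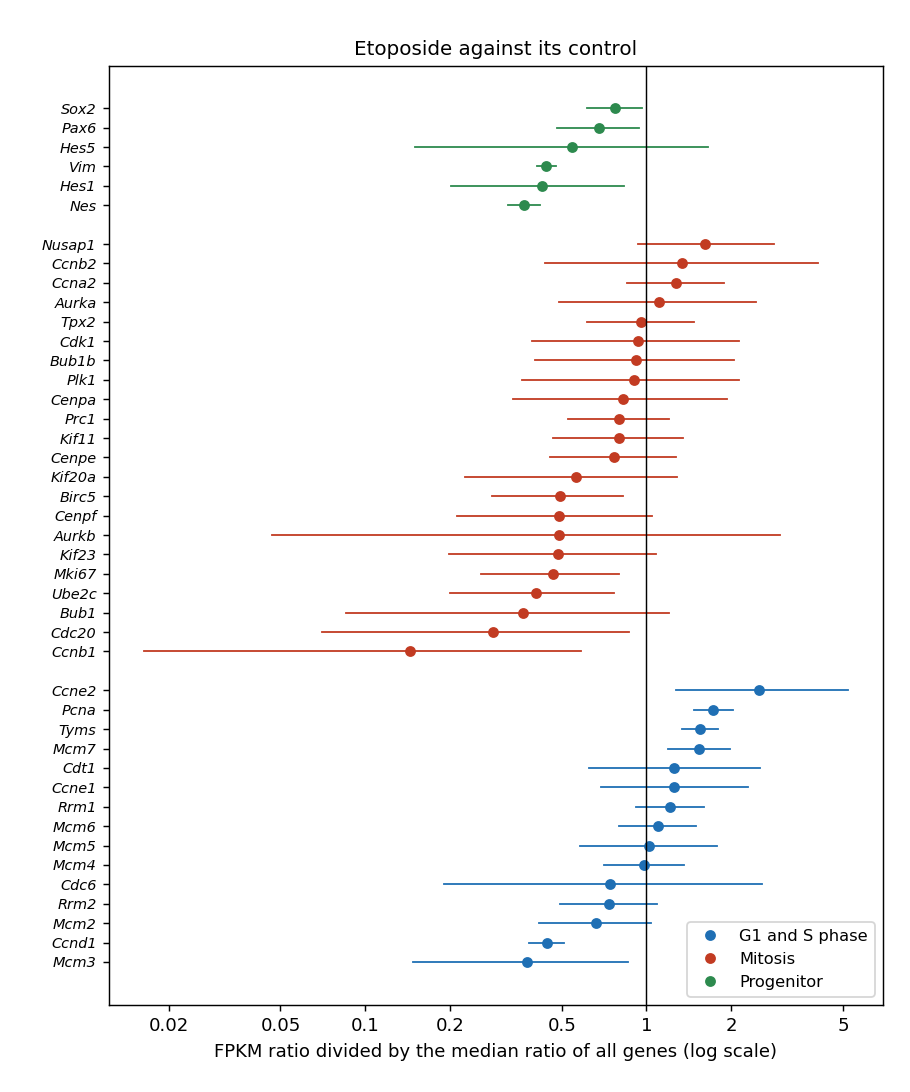
FPKM ratio of etoposide to its control, divided by the median ratio of all genes (log axis), with 95% counting intervals as bars and the median gene as a line at 1. Progenitor genes lie to the left of 1, from 0.368 to 0.773, mitotic genes have wide intervals around a median of 0.785, and Pcna, Tyms, Mcm7 and Ccne2 lie to the right.

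All 6 progenitor genes were below the median gene with etoposide, with a median of 0.493, and 3 were at least 2-fold lower. Nes read 8.84 and 2.48 FPKM, a relative ratio of 0.368 (0.321 to 0.420). Vim (chr2:13495938-13504453) read 72.5 and 24.4, a ratio of 0.442 (0.409 to 0.477). Hes1 read 1.70 and 0.551, a ratio of 0.426 (0.203 to 0.833). Nestin and vimentin were measured on roughly 285 and 878 fragments with etoposide, so counting error is small for them. The authors' deposited table lists Nes as 3.57-fold and Vim as 2.97-fold lower, and these and Ccnd1 are the 3 members among its 692 genes, of which 680, or 3.03% of all genes, are lower and 12, or 0.0535%, higher. Sox2 gave 0.773 (0.617 to 0.966), Pax6 gave 0.679 (0.483 to 0.945) and Hes5 gave 0.544 (0.150 to 1.66). Among 19 further progenitor genes 15 were below the median gene and 7 at least 2-fold, with a median of 0.604. Tnc, the matrix protein tenascin C, read 4.49 and 0.651 FPKM, a ratio of 0.190, and Lhx2, a transcription factor of cortical progenitors, read 15.8 and 4.51, a ratio of 0.376. Of the Notch pathway genes 11 of 14 were below the median gene, including Notch2 at 0.422 and the Notch feedback gene Nrarp at 0.474. The other 3 were above it, and the highest ratio of the list was 3.66. The counting interval lay below 1 for 7 of the 14, against 25.0% of all genes. It lay above 1 for 1, Dll3, against 21.5% of all genes.

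Further lists gave the setting for etoposide. Of the further replication genes 20 of 30 were above the median gene, with a median of 1.33, among them Prim1 at 2.04, the clamp loader subunit Rfc3 at 1.97, the origin recognition subunit Orc6 at 1.55 and Dut at 1.55. Their counting interval lay above 1 for 7 of 30, or 23.3% against 21.5% of all genes. Of the further mitotic genes measured in both libraries 22 of 34 were below the median gene and 8 at least 2-fold lower, with a median of 0.747. Those below it included Cit, citron kinase of cytokinesis, at 0.509 and Cks2, a Cdk1 subunit, at 0.657. The 12 above it included Mad2l1 at 1.29, and the highest ratio of the list was 6.11. The interval of these genes lay below 1 for 6 of 34, or 17.6% against 25.0% of all genes. It lay above 1 for 3, Hmmr, Kif18a and Ttk, or 8.82% against 21.5%. Among the cell cycle regulators E2f5 gave 2.15 and E2f3 gave 0.435. Of the 7 CDK inhibitors 4 were below the median gene and 2 at least 2-fold lower, with a median of 0.957, and the interval lay above 1 for 2 and below 1 for 1. Cdkn1b, which stops cells in G1, read 8.59 and 13.7 FPKM, a ratio of 2.10, and Cdkn1a, the p53 target, read 13.2 and 12.4, a ratio of 1.23. Of the 7 intermediate progenitor genes measured in both, 6 were above the median gene, with the antiproliferative genes Gadd45g at 2.10 and Btg2 at 2.01. The interval lay above 1 for these 2 genes only, or 28.6% of the 7 against 21.5% of all genes. The intermediate progenitor list rested on roughly 284 fragments in the control and 382 with etoposide.

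Values that moved with the etoposide comparison stand beside it here. Astrocyte markers summed to 64.5 FPKM in the control and 34.9 with etoposide, with 5 of 8 below the median gene and a median of 0.808, and neuronal markers summed to 627 and 378, with 8 of 10 below and the same rounded median of 0.808. Oligodendrocyte lineage markers summed to 20.6 and 5.42 FPKM, with Sox10 at 0 with etoposide and 6 of 7 below, and mural cell and fibroblast markers to 14.6 and 3.23, with 8 of 10 below and a median of 0.236. The counting interval lay below 1 for 7 of 10 neuronal, 4 of 8 astrocyte, 3 of 7 oligodendrocyte lineage and 6 of 10 mural cell and fibroblast markers. It lay above 1 for 1 marker of each list. Of the further progenitor genes 12 of 18 had intervals below 1, against 25.0% of all genes. Microglial markers summed to 0.602 and 0.483 FPKM and endothelial markers to 0.586 and 0.277. Genes with long loci also read lower with etoposide, with a median relative ratio of 1.18 under 20 kb, 0.954 from 20 to 100 kb and 0.680 above 100 kb, among genes at FPKM of at least 1 in both. The median locus of the members was 15.3 kb for G1 and S phase, 20.6 kb for mitosis and 8.94 kb for progenitor genes. The part of cell type markers and of locus length in the member values was not tested.

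With NMDA the members stayed close to their control. None of the 42 members compared on log2(FPKM + 1) was at least 2-fold higher or lower, against 0.438% and 0.729% of all genes, and by the relative ratio 0 of 43 were, against 2.56% and 3.49%. None stands among the 63 genes of the authors' deposited table for NMDA, which holds 0.111% of genes as higher and 0.169% as lower. Relative ratios ran from 0.683 to 1.67, with medians of 0.964 for G1 and S phase, 0.944 for mitosis and 0.938 for progenitor genes, against 0.996 for all genes. Of the members 30 were below and 13 above the median gene, against 51.4% and 48.6% of genes. The counting interval lay below 1 for 7 members and above 1 for 3, against 13.5% and 13.3% of genes.

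Some well-measured members stayed at the median gene and others did not. Mki67 read 4.20 FPKM in the NMDA control and 4.21 with NMDA, a relative ratio of 0.982 (0.896 to 1.08). Ccnd1 read 16.4 and 16.7, a ratio of 1.00 (0.926 to 1.08), and Mcm6 read 9.82 and 9.58, a ratio of 0.956 (0.870 to 1.05). The counting intervals of these 3 genes stayed between 0.870 and 1.08. Vim, Sox2, Nes, Pax6 and Pcna had more fragments than these in the NMDA control, and their intervals excluded 1. The lowest ratio was that of Ube2c (chr2:164595429-164598402), at 9.59 and 6.68 FPKM, 0.683 (0.586 to 0.794), and the highest that of Cdc6, at 0.258 and 0.441 FPKM, 1.67 (1.01 to 2.81) from roughly 27 and 44 fragments. Nes read 16.7 and 12.9, a ratio of 0.755 (0.708 to 0.805), and Vim read 314 and 257, a ratio of 0.804 (0.784 to 0.824). Pcna gave 0.896, Rrm1 gave 0.889, Mcm5 gave 0.837 and Pax6 gave 0.924, the other members with intervals below 1. Sox2 at 1.10 (1.04 to 1.16) and Hes5 at 1.15 (1.00 to 1.32) were slightly above it. Hes1 gave 0.951 (0.773 to 1.17). Nes, Vim, Pax6 and Hes1 thus lay below the median gene, and Sox2 and Hes5 above it. Of the further lists the Notch ligand Dll3 at 0.570, from 8.39 and 4.88 FPKM, and its pathway modifier Mfng at 0.536, from 1.13 and 0.619, were the lowest named, and Gins1 at 1.43 and Gmnn, the licensing inhibitor geminin, at 1.37 the highest. Astrocyte markers summed to 685 and 658 FPKM, with 7 of 8 below the median gene and a median of 0.900. Their interval lay below 1 for 4 and above 1 for 1. Oligodendrocyte lineage markers summed to 197 and 191, with 9 of 9 below, a median of 0.932 and 4 intervals below 1. Neuronal markers summed to 1629 and 1730, with 9 of 10 above, a median of 1.05 and 6 intervals above 1. Mural cell and fibroblast markers summed to 72.9 and 61.8 FPKM, with 6 of 9 below, a median of 0.816 and 4 intervals below 1. Of all genes, 13.5% had intervals below 1 and 13.3% above. The part of these cell types in the values of Vim and Nes was not tested.

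**Figure D5:**
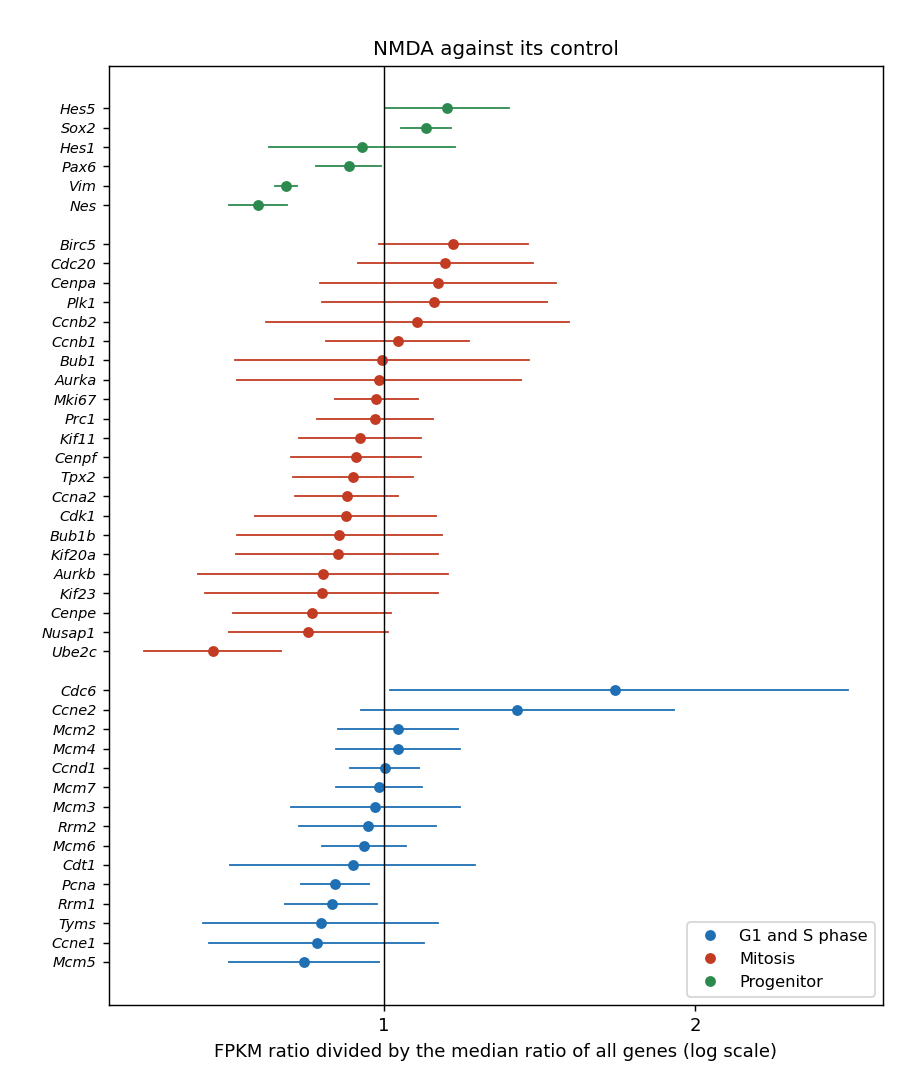
FPKM ratio of NMDA to its control, divided by the median ratio of all genes (log axis), with 95% counting intervals as bars and the median gene as a line at 1. The genes lie between 0.683 for Ube2c and 1.67 for Cdc6, and none reaches 2-fold.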

How the data were processed

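The 4 RNA libraries were prepared from total RNA of the cortical cultures and read from both fragment ends, per the labels' protocols. FPKM are the authors' own values and were taken unaltered from the tables they deposited. Tools named in the submitters' processing notes include Cufflinks 2.0.0, Cuffdiff, TopHat and Bowtie, and the genome build is mm9. The members and gene lists were chosen with earlier results of these data known. All 43 members are accounted for, and up to 4 genes of each other list were named by the size of their log2 fold relative to the median gene.

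Each treated library was set against the control with FPKM equal to those of the authors' deposited table. How the authors chose the genes of that table is not stated in the sources used here. The main fold was log2((a + 1)/(b + 1)), with a pseudocount of 1 FPKM, over genes at FPKM of at least 1 in either library, with calls at 2-fold. It understates the change of low genes, so the ratio of plain FPKM divided by the median ratio of genes at FPKM of at least 1 in both was added after seeing the data, over genes above 0 in both. Fragment numbers were estimated from the steps between low FPKM of single-exon genes at least 800 bases long. The steps were blurred, so these numbers are approximate, at an FPKM of 0.0440 to 0.0520 for 1 fragment on 1 kb. They gave exact 95% intervals of ratios, which cover counting error only. With 1 library a group no test was run. Exon overlaps and transcript lengths came from GENCODE vM1, and promoter windows from RefSeq on GRCm38.p6. The comparison was tested on simulated data. Python 3.11.15, pandas 2.3.3 and scipy 1.17.1 were used. The 12 chromatin samples and the neuronal marker Map2 were not analysed here.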

Additional observations from a re-analysis of the deposited data

How the results depend on the processing

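No paired analysis was possible because each group has 1 library and the result comes from no test. Values are on log2(FPKM + 1) at FPKM of at least 1 in either library unless another setting is named, and list medians are minus that of all genes. With etoposide, 3 members were at least 2-fold lower and 0 higher of 16 compared. The lower count was 5 with a pseudocount of 0.1 FPKM, 6 at 1.5-fold and 14, with 1 higher, on the plain relative ratio of 43 members. Against the other control after median scaling it was 22, with 1 higher, of 41. The mitotic median of 0.01 rested on 3 genes and reversed to -0.22 with a pseudocount of 0.1 FPKM, -0.060 with no filter on level, -0.13 with median scaling and -0.38 on the plain relative ratio. Against the other control the mitotic median was -0.94, the G1 and S phase median reversed from 0.19 to -0.25, and the progenitor median went from -0.83 to -1.66. At FPKM of at least 5 no mitotic member was left, so that setting gave no mitotic value. With NMDA, counts of 0 higher and 0 lower became 4 and 1 against the other control, and medians of -0.05 for G1 and S phase, -0.06 for mitosis and -0.08 for progenitor genes reversed to 0.23, 0.50 and 0.63. Between the controls, the 37 higher members became 17 of 19 at FPKM of at least 5 and 6 with median scaling. The 1 lower member became 0 at FPKM of at least 5 and 2 on the plain relative ratio. The mitotic median of 0.34 became 1.05 with a pseudocount of 0.1 FPKM and 1.34 on the plain relative ratio. The cause was not tested. Of the other summary values 66 stayed close to the reported value, as did 374 single-gene values, while 124 moved. The sign of the log2 fold changed in 46 single-gene values, 24 of them against the other control, and in 0 of the genes past 2-fold. The low fragment numbers of mitotic genes in the etoposide pair, roughly 646 and 372 over 22 genes, limit those ratios.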
